A study of Mus musculus with 4 samples.

Results

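Genes of the heart muscle cell were followed in RNA from mouse lung. The set held 35 genes of the 26629 that could be named on the array, and every probe carrying one of their names was taken, 69 of 56605 probes. They were chosen by name with earlier results on these same 4 arrays in view, from their processed signal across the 4 groups, so their differences between groups are described here and not tested. The study gave mice of strain C57BL/6J either a sham operation or ORX, read here as orchiectomy because the series is about testosterone deficiency, and let them inhale PBS or PPE, read as porcine pancreatic elastase because it models emphysema. Lung RNA was taken at 3 weeks. The group sham/PBS had the sham operation and PBS, sham/PPE the sham operation and PPE, ORX/PBS had ORX and PBS, and ORX/PPE had ORX and PPE. RNA of 5 mice was pooled for each group and read on 1 array, so no difference below has a replicate check, and a difference between groups cannot be told apart from a difference between 2 pools or 2 arrays.

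Heart muscle cells shorten through sarcomeres, repeated units of myosin and actin filaments that are held at Z discs and switched on by calcium. Atrial and ventricular cells build them from partly different myosin light chains, and atrial cells store natriuretic peptide. In mice a sleeve of atrium-like striated heart muscle runs along the pulmonary veins into the lung, so heart muscle genes can be read in lung tissue, and muscle can also be carried along where the heart is cut away from the lung.

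The upstream sequences of 4 genes are shown because the first pair, Nppa and Nppb, gave the largest differences among the 35, and the second pair, Myl7 and Myl2, are the atrial and the ventricular form of the same light chain. Each run holds the 250 bases before a start annotated in RefSeq, assembly GRCm38.p6, read 5′ to 3′ on the gene's strand. Capitals mark matches on either strand to 6 motifs, which are AGATAA for the GATA factors, AGGTGT for the T-box factors, CATTCC for M-CAT, the TATA box as TATAAA, and the MEF2 and CArG motifs. Myl2 has 2 annotated starts, of which the first is shown.

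Nppa, chr4:148000472-148000721, + strand: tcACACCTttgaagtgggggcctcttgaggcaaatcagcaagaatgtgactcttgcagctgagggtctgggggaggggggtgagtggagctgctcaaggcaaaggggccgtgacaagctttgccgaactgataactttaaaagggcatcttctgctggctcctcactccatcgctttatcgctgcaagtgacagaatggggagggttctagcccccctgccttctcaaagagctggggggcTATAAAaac
Nppb, chr4:147985650-147985899, + strand: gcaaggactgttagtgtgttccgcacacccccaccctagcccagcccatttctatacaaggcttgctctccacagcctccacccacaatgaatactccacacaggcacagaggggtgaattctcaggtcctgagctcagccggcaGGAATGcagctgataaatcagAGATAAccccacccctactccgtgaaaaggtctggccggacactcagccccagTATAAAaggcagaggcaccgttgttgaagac
Myl7, chr11:5898783-5899032, - strand: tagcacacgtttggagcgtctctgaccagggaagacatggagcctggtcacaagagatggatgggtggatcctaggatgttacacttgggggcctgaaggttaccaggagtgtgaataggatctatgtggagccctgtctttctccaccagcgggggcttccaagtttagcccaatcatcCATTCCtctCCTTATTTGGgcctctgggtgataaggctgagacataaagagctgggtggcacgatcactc
Myl2, chr5:122092474-122092723, + strand: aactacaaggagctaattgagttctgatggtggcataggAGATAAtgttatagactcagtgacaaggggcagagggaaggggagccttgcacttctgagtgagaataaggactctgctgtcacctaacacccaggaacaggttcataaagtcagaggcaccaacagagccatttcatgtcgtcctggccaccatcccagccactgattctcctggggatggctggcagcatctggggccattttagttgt

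Of the motifs set in capitals, the run before Nppb held the letters of GATA, M-CAT and TATAAA, and that before Nppa a T-box and a TATAAA match. The run before Myl7 held an M-CAT and a CArG match of these, and that before Myl2 a single GATA match. The AAGTG and E-box letters counted below also occur in these promoters and were not marked. Promoters of 300 bases (250 before the start and 50 after it) were listed for 30 of the 35 genes, 37 in all. Over these, a CArG match was found in 13.5%, against 1.6% of all 32851 promoters listed, a MEF2 match in 10.8% against 3.2%, and an M-CAT match in 27.0% against 14.7%. The promoters listed for Ldb3 overlap and hold the same CArG site, so the CArG matches came from 4 genes. AGATAA stood in 16.2% against 11.2%, TATAAA in 18.9% against 13.6%, AGGTGT in 13.5% against 13.7%, AAGTG (Nkx2-5) in 43.2% against 46.4%, and the E-box CANNTG in 89.2% against 72.3%. Both strands were searched and overlaps between motifs were kept. CArG and MEF2 boxes are known as binding motifs of serum response factor and of the myocyte enhancer factors. A match describes letters in this window and was not set against any difference in level.

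Levels below are log2 of the processed signal minus the 75th percentile of that signal on the same array, so a difference of 1 is 2-fold, and levels of different probes are not set against each other. Where 4 levels follow a gene or a list, both sham arrays come first and both ORX arrays last, and PBS stands before PPE within each. Genes that mark the lung were present, since all 10 genes of a list for alveolar lung were well above background on all 4 arrays and their summed signal ranged from 1122 to 1277 times the array's 75th percentile. Of the 35 heart muscle genes, 33 were well above background on every array, and Nkx2-5 and Trim63 were not on ORX/PPE. No spot was saturated. The spread between repeated spots of the 300 probes printed 10 times was small, with median SDs up to 0.0363 on an array and 0.0514 for a difference, which covers neither mice nor pools.

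The heart muscle genes stood highest on sham/PPE and lowest on ORX/PPE. PPE against PBS gave a median difference of 0.47 in sham lungs, with 31 of 35 genes above 0, and of -0.88 in ORX lungs, with 31 of the 33 measured genes below 0. Without PPE, ORX against sham gave -0.26, and under PPE it gave -1.70, a median of 3.26-fold lower. The medians over all genes measured were 0.02, 0.00, -0.01 and -0.02 in these 4 comparisons, each of which shares an array with others. In bulk RNA, fewer muscle cells and less RNA per cell cannot be told apart.

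At least 2-fold, 7 of the 35 were higher with PPE in sham (Nppb, Nppa, Myl2, Corin, Mybpc3, Nkx2-5 and Smpx) and none lower, where 1.27% of all genes tested were higher and 0.414% lower. With PPE in ORX, 10 were lower (Mybphl, Ckm, Nppa, Pln, Smpx, Csrp3, Sln, Ckmt2, Myh6 and, as a bound, Trim63) and none higher, where 0.351% of all genes were lower and 0.692% higher. With ORX under PBS none of the 35 differed by 2-fold, where 0.58% of all genes were higher and 1.23% lower. With ORX under PPE 27 of the 35 were at least 2-fold lower and none higher, where 1.41% of all genes were lower and 0.328% higher. These contrasts were used in choosing the genes, so nothing is read from the distance to those shares. Background correction with normexp in place of the scanner's own left 3 genes 2-fold higher with PPE in sham (Nppa, Nppb and Mybpc3), 3 lower with PPE in ORX (Nppa, Sln and Myh6) and 23 lower with ORX under PPE. Without scaling between arrays, 20 were lower with PPE in ORX, and the median of all genes there was -0.21. The genes nearest to the 2-fold line were Smpx (1.07) inside and Sln (0.94) outside with PPE in sham, Myh6 inside (a size of 1.05) and Myl7 outside (0.97) with PPE in ORX, and Myl3 inside (1.15) and Tcap outside (0.81) with ORX under PPE.

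**Figure D1:**
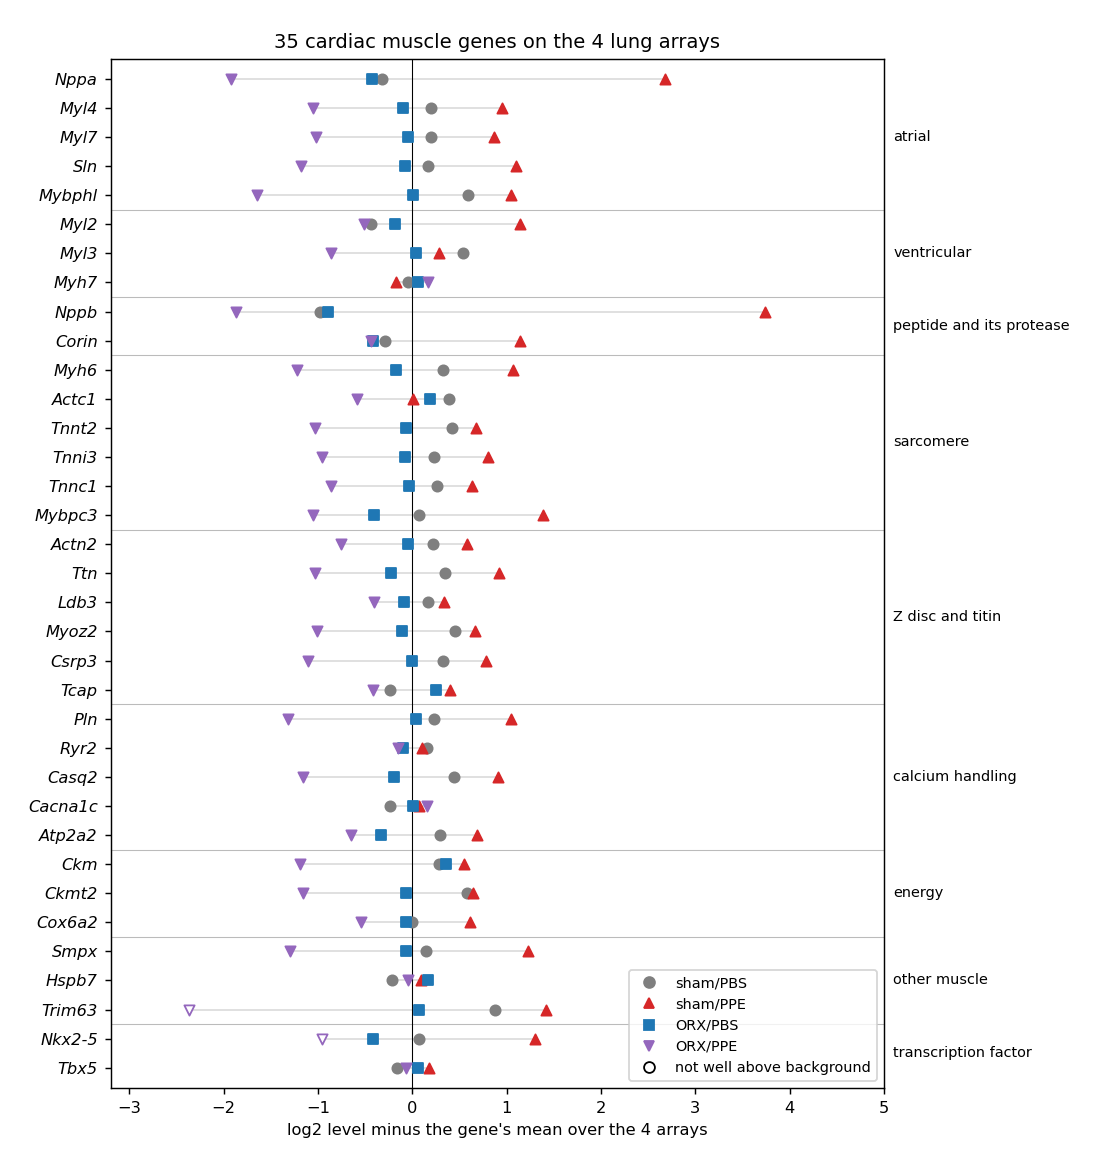
Level of each of the 35 genes on each of the 4 arrays, as log2 minus the gene's mean over the arrays, grouped by role; open symbols are not well above background. The triangle of sham/PPE lies farthest right for 29 genes and that of ORX/PPE farthest left for 31, with Nppa and Nppb the widest, while Cacna1c, Ryr2, Hspb7 and Tbx5 stay close together.

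Among the 33 genes above background on every array, sham/PPE was the highest array for 27 (26.2% of all 19033 such genes), ORX/PPE the lowest for 29 (26.5%), and both held for 26 (9.76%). The level was higher with PPE in sham and lower with PPE in ORX for 28 of them (28.4% of all such genes). Over all 35 genes, the effect of PPE in ORX minus that in sham had a median of -1.38 and was -1 or lower for 26. Trim63 and Nkx2-5 are among those 26 and enter as bounds. Over the 19033 genes above background on every array the median was -0.03 and 1.48% were that low. That share leaves out genes with bounds, so it is not on quite the same footing as the 26 of 35. With 1 array in each group these 2 effects cannot be tested against each other.

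All 5 atrial genes followed this order of arrays. Their medians were 0.74 with PPE in sham, -1.10 with PPE in ORX, -0.24 with ORX under PBS and -2.28 with ORX under PPE, where all 5 were at least 2-fold lower. Nppa encodes atrial natriuretic peptide, the hormone stored in atrial granules, and its probe lies at chr4:147376024-147376083 (mm9). Nppa had a level of 2.60 and 5.60 in sham lungs (PBS, then PPE) and 2.49 and 1.0 in ORX lungs. PBS arrays were thus alike, sham/PPE was 8.03-fold above its PBS array and ORX/PPE 2.80-fold below its own. Between the 2 PPE arrays Nppa differed 24.2-fold. A second Nppa probe gave 3.12 with PPE in sham and -1.49 with PPE in ORX.

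Myl7, the atrial regulatory light chain of myosin, read 4.21 and 4.88 in sham lungs (PBS, then PPE) and 3.98 and 3.00 in ORX lungs. Its partner Myl4, the atrial essential light chain, read 4.22, 4.97, 3.92 and 2.97 on the arrays in that order. The light chains were therefore 3.69-fold (Myl7) and 3.99-fold (Myl4) lower on ORX/PPE than on sham/PPE, and with PPE in sham they were 1.59-fold and 1.68-fold higher. Sarcolipin (Sln), a small inhibitor of the calcium pump in atrial muscle, read 3.41, 4.34, 3.16 and 2.06, a difference of 0.94 with PPE in sham and -1.10 with PPE in ORX. Mybphl, a relative of myosin binding protein H found in atria, read -1.73, -1.27, -2.32 and -3.97, and was 3.14-fold lower with PPE in ORX (-1.65), or -0.97 with normexp, short of 2-fold. Sham/PPE was the highest and ORX/PPE the lowest array for each of the 5. Without Nppa the atrial medians were 0.71, -1.04, -0.27 and -2.14.

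The 3 ventricular genes did not share 1 order. Their medians were -0.12, -0.34, 0.10 and -1.15 in the 4 comparisons, and with normexp that for PPE in ORX was -0.0011 and that for ORX under PBS turned to -0.04. Myl2, the ventricular regulatory light chain, was dim, with -4.88 and -3.31 in sham lungs (PBS, then PPE) and -4.62 and -4.96 in ORX lungs, where the lowest levels counted as well above background lay between -6.71 and -6.25. Only sham/PPE stood out, 2.98-fold above sham/PBS, and the other 3 arrays spanned 0.34. With normexp that difference was 0.83, short of 2-fold. Myl3, the ventricular essential light chain, read -0.83, -1.08, -1.32 and -2.23, so its highest array was sham/PBS. Myh7, the slow beta myosin heavy chain of adult ventricle in large mammals and of fetal ventricle in mice, read 1.17, 1.05, 1.28 and 1.38, with ORX/PPE highest. Myl2 and Myl3 were 3.15-fold and 2.21-fold lower with ORX under PPE. With normexp they were at -0.87 and -0.92, short of 2-fold, while all 5 atrial genes stayed past it. Normexp with an offset draws low values together, and these probes were dimmer than those of Nppa, Myl4, Myl7 and Sln. The dim atrial gene Mybphl also shrank, from -2.69 to -1.89. Nothing about atrial against ventricular genes is therefore read from the normexp values. The effect of PPE in ORX minus that in sham was -1 or lower for 5 of 5 atrial genes (median -2.04) and 1 of 3 ventricular genes (median -0.66). This split of 5 against 3 genes on single arrays was not tested.

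**Figure D2:**
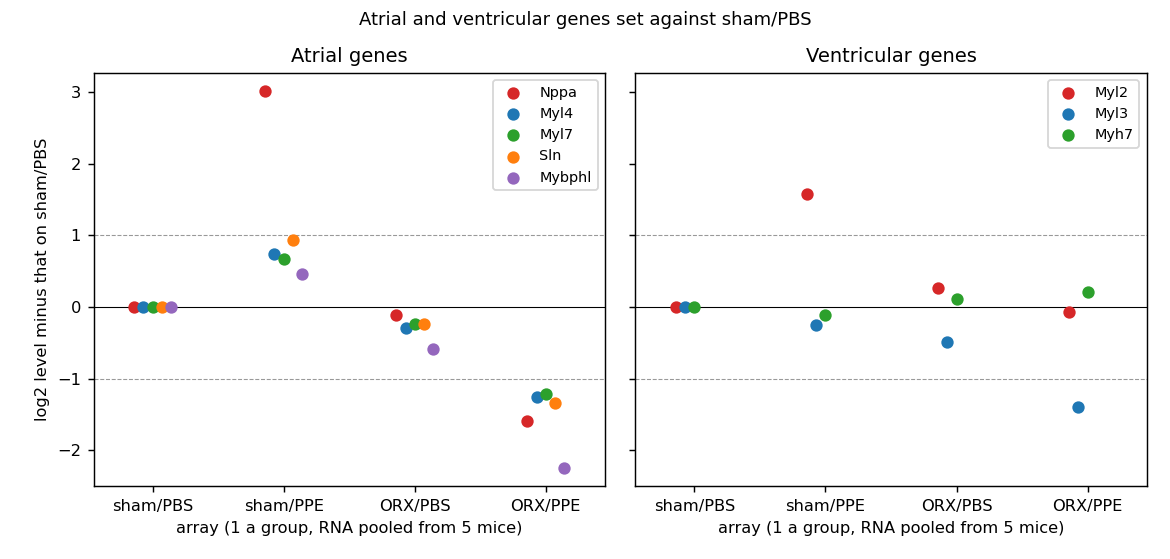
Level on each array minus that on sham/PBS (log2) for the 5 atrial genes (left) and the 3 ventricular genes (right); dashed lines mark 2-fold. All 5 atrial genes are above 0 on sham/PPE and below -1 on ORX/PPE, whereas Myl2 departs on sham/PPE alone, Myl3 lies below 0 on the other arrays and Myh7 stays near 0.

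Nppb and Corin belong to the same hormone system as Nppa. Nppb encodes brain natriuretic peptide, which heart muscle releases under stretch, and Corin is the membrane protease that cuts the precursor of atrial natriuretic peptide. Nppb read -4.04 and 0.67 in sham lungs (PBS, then PPE) and -3.96 and -4.93 in ORX lungs. It was thus low on 3 arrays and 26.3-fold higher on sham/PPE than on sham/PBS, the largest difference with PPE in sham among the 35, and 48.7-fold lower on ORX/PPE than on sham/PPE. A second Nppb probe gave 3.80 and -3.96 for those comparisons, and normexp 3.56 and -3.95. Corin read -3.55, -2.12, -3.68 and -3.71, so it too was high on sham/PPE alone, by 2.69-fold (1.43, or 0.98 with normexp). The Nppa and Nppb probes lie 14717 bases apart on chromosome 4 (mm9), so both are neighbours in the genome. Leaving both out gave member medians of 0.46, -0.82, -0.26 and -1.67 in the 4 comparisons.

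Of the 6 other sarcomere genes, 5 were at least 2-fold lower with ORX under PPE. Myh6, the alpha myosin heavy chain of adult mouse heart, read 3.66 and 4.41 in sham lungs (PBS, then PPE) and 3.17 and 2.11 in ORX lungs. It was 4.90-fold lower on ORX/PPE than on sham/PPE, unlike the adjacent Myh7, which was 1.26-fold higher. The 3 subunits of the calcium switch on the thin filament differed alike, with differences of -1.70 for Tnnt2 (the tropomyosin-binding subunit), -1.76 for Tnni3 (the inhibitory subunit) and -1.49 for Tnnc1 (the calcium-binding subunit). Tnni3 read 1.55, 2.13, 1.25 and 0.37, in the same order of arrays as Myh6. Mybpc3, cardiac myosin binding protein C, read -0.64, 0.67, -1.12 and -1.77, with 1.31 on PPE in sham and -2.43 on ORX under PPE. Actc1, cardiac alpha actin, was the exception, with 2.36, 1.98, 2.16 and 1.38, so that sham/PBS was highest and the largest difference in the 4 comparisons was -0.78.

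Genes of the Z disc and titin gave medians of 0.41, -0.76, -0.29 and -1.50. Csrp3, a LIM protein of the Z disc, read -0.42 and 0.04 in sham lungs (PBS, then PPE) and -0.74 and -1.85 in ORX lungs, 3.71-fold lower between the PPE arrays. Ttn, the giant elastic protein titin, had 6 probes. The brightest gave -1.95 with ORX under PPE and another on the same transcript -1.90, but 3 further probes gave -0.48, -0.21 and -0.21, and the last had only a pair of arrays above background. Myoz2, a calcineurin-binding Z disc protein, read -0.58, -0.38, -1.15 and -2.05, and its second measured probe gave -1.67 for ORX under PPE as the first did. Actn2, the actin cross-linker of the Z disc, was 2.52-fold lower in that comparison (-1.33), and its other 2 probes gave -1.81 and -0.01. Ldb3 (-0.73, and -1.14 on a second probe) and Tcap (-0.81) stayed short of 2-fold on the probes that stand for them, and Tcap, the cap of titin, differed from the others in being higher with ORX under PBS (0.49).

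The 5 genes of calcium handling differed among themselves. Pln, phospholamban, which restrains the calcium pump, read -3.41 and -2.60 in sham lungs (PBS, then PPE) and -3.60 and -4.96 in ORX lungs. Casq2, the cardiac calcium store protein, read -0.80, -0.33, -1.44 and -2.40. Both had the common order, and were 5.15-fold and 4.20-fold lower with ORX under PPE. With normexp Pln was at -1.25 there and at -0.49 for PPE in ORX, short of 2-fold. Atp2a2, the calcium pump itself, which many other cell types also carry, read 1.38, 1.78, 0.76 and 0.43 on its brightest probe, 2.54-fold lower with ORX under PPE. On its other 2 probes that difference was -0.14 and -0.13, so the call rests on 1 probe. Ryr2, the calcium release channel, gave no difference larger than 0.26 in size on its brightest probe, and its other measured probe gave -0.85 for ORX under PPE. Cacna1c, the voltage-gated channel also found in smooth muscle, lay between 0.77 and 1.16 on all arrays.

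The 3 energy genes were each at least 2-fold lower with ORX under PPE. Ckm, muscle creatine kinase, read -3.91 and -3.64 in sham lungs (PBS, then PPE) and -3.84 and -5.38 in ORX lungs, so only ORX/PPE stood apart, 2.92-fold below ORX/PBS. With normexp Ckm was at -0.46 for PPE in ORX and -0.79 for ORX under PPE, short of 2-fold. Ckmt2, the mitochondrial creatine kinase, read -0.43, -0.37, -1.07 and -2.17, with sham/PBS and sham/PPE alike. Cox6a2, the heart and muscle form of a cytochrome oxidase subunit, read 3.21, 3.83, 3.15 and 2.68. With PPE in sham Ckm and Ckmt2 differed by 0.27 and 0.06, and Cox6a2 by 0.62.

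Smpx, a small stretch-related protein of striated muscle on chromosome X, read -2.59 and -1.52 in sham lungs (PBS, then PPE) and -2.81 and -4.04 in ORX lungs. Smpx and Nppa were the 2 genes at least 2-fold higher with PPE in sham and at least 2-fold lower with PPE in ORX, and with normexp Smpx was at 0.87 and -0.62. Trim63, a ubiquitin ligase of muscle breakdown, read -4.21, -3.67 and -5.02 and was not well above background on ORX/PPE, which makes it at least 6.19-fold lower there than on sham/PPE (a bound of -2.63, and of -1.01 with normexp). Hspb7, a small heat shock protein of the heart, lay between 0.05 and 0.43. Of the transcription factors, Nkx2-5, which specifies heart muscle, read -5.74, -4.51 and -6.22 and was not well above background on ORX/PPE, at least 3.47-fold below sham/PPE (a bound of -1.80). With normexp Nkx2-5 was short of 2-fold both there (a bound of -0.67) and with PPE in sham (0.56). Tbx5, which lung mesenchyme also uses, lay between 0.49 and 0.83.

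The 8 genes short of 2-fold with ORX under PPE were Myh7, Actc1, Ldb3, Tcap, Ryr2, Cacna1c, Hspb7 and Tbx5. Over the 33 genes measured on all arrays, the difference with PPE in sham and that with PPE in ORX, which share no array, had a Pearson correlation of -0.21 and a Spearman correlation of -0.29, and -0.06 and -0.20 over 31 genes without Nppa and Nppb. This is a description over genes read on the same 4 arrays, and genes are not replicates. The directions were opposite for most of them, as counted above.

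**Figure D3:**
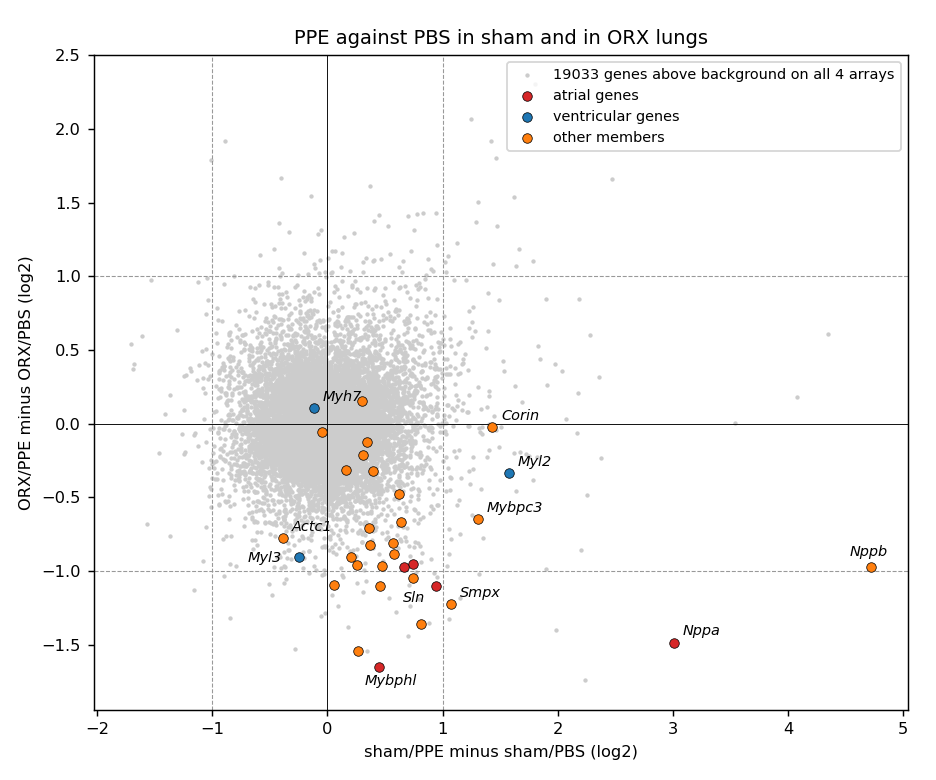
Difference between PPE and PBS in sham lungs (horizontal, log2) and in ORX lungs (vertical, log2) for the 33 heart muscle genes measured on all arrays over the 19033 genes above background on all 4 (grey); dashed lines mark 2-fold. Of the 33, 28 lie right of and below 0, with Nppa and Nppb far to the right and Mybphl the lowest of them.

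Second probes bear on the values of single genes. Of 34 other probes, 25 were measured with ORX under PPE, and 24 of them had the direction of the probe that stands for the gene. For the genes past 2-fold in that comparison, 18 of 18 such probes had the same direction and 12 passed 2-fold. With PPE in sham 17 of 25 had the same direction, and with PPE in ORX 19 of 25.

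Striated muscle genes outside the 35 gave smaller differences as a list. The 35 were chosen with these contrasts in view, so nothing is read from that. Of 34 other heart and striated muscle genes, 8 were at least 2-fold lower with ORX under PPE (1.41% of all genes), 1 was at least 2-fold higher with PPE in sham and 1 lower with PPE in ORX, and the medians were 0.10, -0.18, -0.23 and -0.34. Among them were Cox8b, Mb, Myom2, Cox7a1, Srl, Hrc and Fabp3, of which those outside the naming rule were picked after their values were seen. Mb, the oxygen store myoglobin, read 1.60 and 2.31 in sham lungs (PBS, then PPE) and 1.28 and 0.18 in ORX lungs, the same order of arrays as Myl7. Cox8b, a muscle form of a cytochrome oxidase subunit, read 1.65, 2.91, 1.31 and 0.69. Sham/PPE highest and ORX/PPE lowest held for 12 of the 31 genes of this list above background on all arrays. Of its genes, Cox7a1 is also counted below with brown and white fat, and Des with smooth muscle.

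Among 11 further atrial genes the medians were 0.48, -0.03, -0.25 and -0.84. Kcnj3 and Kcnj5, the 2 subunits of the acetylcholine-gated potassium channel of atrial cells, were -2.19 and -1.99 with ORX under PPE, and Tbx20, a heart transcription factor, was above background on sham/PPE alone. Kcnj3 on ORX/PPE (-6.28) lay close to the lowest level counted as well above background there (-6.31). Of the 7 genes measured with ORX under PPE, 6 were below 0 and Dkk3 was above it (0.20), and Kcna5 gave a bound of 0.43. Gja5, a gap junction gene known in atrium and picked after its values were seen, was lower with PPE in sham (-0.76). These medians rest on 7 to 9 of the 11 genes, and with bounds they were 0.72, -0.12, -0.25 and -0.65. The 8 further ventricular genes had medians of 0.00, -0.03, -0.03 and 0.05, with Irx4 and Hey2, transcription factors of ventricle, at -0.01 and 0.15 with ORX under PPE and Mylk3, the cardiac light chain kinase, at -1.57. Among 6 pacemaker genes, medians were 0.17, 0.06, -0.06 and -0.31, and Isl1 was below background on every array.

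The 23 skeletal muscle genes had medians of 0.20, 0.01, -0.12 and -0.30. Myl1, a fast light chain, read 1.60, 2.37, 1.14 and 0.13, and Myh8, a perinatal heavy chain, 0.23, 1.05, -0.10 and -0.73, both in the order of arrays seen for Myl4 and Myh6. Of the 23, 19 were above background on all 4 arrays and Myh2 and Myog on none. With ORX under PPE, 2 (Myl1 and Myh8) were at least 2-fold lower (1.41% of all genes). Of the 19 measured there, 13 were below 0 and 6 above it, among the latter Mybpc1 (0.69) and Tnnt3 (0.23). Smooth muscle genes (11 outside the 35) had medians of -0.35, -0.14, -0.04 and 0.07, with Cnn1, calponin of smooth muscle, at -0.88 with PPE in sham. For 6 mitochondrial genes abundant in heart and outside the 35, medians were 0.41, -0.31, -0.37 and -1.06. This list is not separate, since Cox7a1, Cox8b and Fabp3 are also counted above with the other heart and striated muscle genes. Of the 6, 3 were at least 2-fold lower with ORX under PPE (1.41% of all genes), and 1 was higher with PPE in ORX (1.16, with 0.692% of all genes). Past 2-fold, 1 was also higher with PPE in sham (1.26, with 1.27% of all genes). With ORX under PBS, 1 was lower (-1.40, with 1.23% of all genes). The stress genes outside the 35 were Ankrd1 and Acta1, also counted above with ventricular and skeletal genes. They gave -0.82 and -0.30 with ORX under PPE.

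Markers of tissues beside the lung also differed between arrays, and their part in the heart muscle values was not tested. The 14 genes of brown and white fat had medians of 0.54, -0.27, -0.08 and -0.65 and a summed signal of 45.6, 76.9, 53.6 and 38.9 times the 75th percentile on the arrays in the order used for genes, with Elovl3 below background everywhere. Ucp1, which lets brown fat make heat, gave a bound of 7.69 for PPE in sham (4.83 with normexp), and Cidea, a lipid droplet protein, read -0.69, 1.48, -1.05 and -1.12. The 7 sperm genes had a summed signal of 0.136, 2.84, 0.133 and 0.139, high on sham/PPE alone, with Prm1 5.87 higher with PPE in sham (3.84 with normexp) and Odf1 below background everywhere. With PPE in ORX 3 of them were measured, at low levels, with a median of 0.01. Of 8 liver genes, the 4 or 5 measured in a comparison had medians of 1.05, -0.91, 0.58 and -1.97, which with bounds were 0.77, -0.64, 0.58 and -0.48, and the list had a summed signal of 2.43, 3.78, 4.04 and 3.69, with Ttr below background everywhere.

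For genes of the lung's own cells and lining, medians over the 10 alveolar genes were 0.10, 0.10, -0.04 and -0.09, although Marco, a scavenger receptor of macrophages, was 1.81 and 2.30 higher with PPE in sham and in ORX. Airway epithelium (6 genes) gave -0.14, -0.08, -0.34 and -0.21, and mesothelium (7 genes) 0.05, -0.33, 0.01 and -0.40. Of 7 thymus genes, 5 were below background on every array (Rag1, Rag2, Ptcra, Foxn1 and Psmb11), and the rest had medians of 0.09, 0.47, 0.40 and 0.79.

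**Figure D4:**
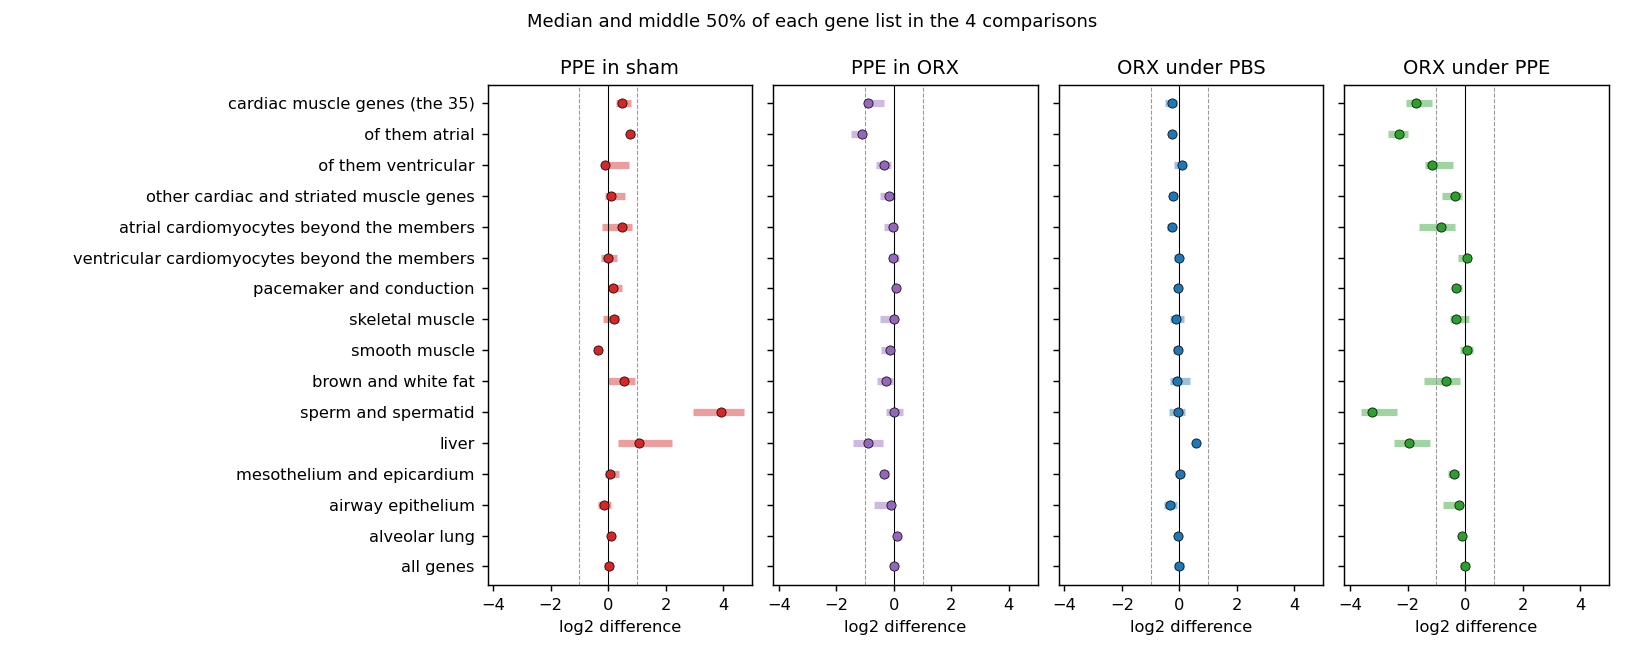
Median (point) and middle 50% of genes (bar) of the log2 difference in each of the 4 comparisons, for the 35 heart muscle genes, their atrial and ventricular members, 12 lists of other genes and all genes; only genes measured on both arrays enter, and dashed lines mark 2-fold. The heart muscle genes lie to the right with PPE in sham and to the left with PPE in ORX and ORX under PPE, while the medians of the alveolar and smooth muscle lists lie between -0.35 and 0.10.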

How the data were processed

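Cy3-labelled lung RNA, pooled from 5 mice a group, was read on 1 Agilent array (design 074809) for each of 4 groups. Spot values are linear intensity from Feature Extraction 10.7.1.1, background-subtracted and not normalized between arrays, per the file headers, whereas the submitters' processing notes name version 9.5.1.1. Further deposited columns hold other values, marks of 0 or 1 that say whether a spot was above background, saturated or an outlier. The deposited value table holds linear intensity of the same arrays, and was used as an alternative.

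Control and outlier spots (31 to 54 an array of 59305 spots) were left out, each array's 75th percentile was subtracted on the log2 scale and spots of a probe were averaged. Taking the percentile over spots, and leaving unnamed expressed sequences out of the genes, were settled after a first run's values were seen. Probes were named by accession (32994), symbol (10224) or synonym (520) through RefSeq (GRCm38.p6), by the file (1973) or not at all (10894). All 69 member probes matched. The probe brightest by mean log2 stands for a gene. A gene was measured if well above background on both arrays; if on 1, the difference is a bound against the higher of the dim value and the lowest level well above background, and genes of either kind count as tested. A 2-fold difference is the threshold, with no test. The members and lists were chosen with earlier results of these data known, and the role groups and motifs after the files were read. All 35 members are named; of the 15 other lists, up to 3 genes with the highest and lowest sham/PPE level against the other arrays, and those never above background, may be, and some genes of these lists are not reported here by name. Software was R 4.3.3, limma 3.58.1 (normexp with offset 50, quantile), Python 3.11.15, numpy 2.4.6, pandas 2.3.3 and matplotlib 3.10.9. On simulated arrays carrying spot noise only, 50 of 50 genes were called at 2.5-, 4- and 8-fold and 0 of 50 at 1.5-fold. Spot noise is far smaller than the distance of these folds from the threshold, so that outcome was fixed in advance. It checks the calling step and covers neither mice nor pools.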

Additional observations from a re-analysis of the deposited data

Results flagged for a closer look

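The direction of the PPE effect was opposite in sham and in ORX lungs for 4 results; none of these differences was tested, since each group is 1 array. The median of the heart muscle genes was 0.47 in sham and -0.88 in ORX, and that of the atrial genes 0.74 and -1.10. Nppa was at 3.00 in sham and -1.49 in ORX, and Smpx at 1.07 and -1.23. Single genes are given here only where both differences passed 2-fold, a limit set after the values were seen. By sign alone, 28 of 33 heart muscle genes would be given. With normexp, Smpx (0.87 and -0.62) did not pass in either.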

How the results depend on the processing

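Counts of genes past 2-fold depended on background correction, on scaling and on the threshold, and values also depended on the choice of probe. Averaging a gene's probes, dim ones included, in place of the brightest left 7 genes lower with PPE in ORX. The member medians were then -0.65 with PPE in ORX and -1.39 with ORX under PPE. Tnnt2 went from -0.96 to -0.0039 with PPE in ORX. The count higher with PPE in sham, 7, was 3 with normexp and 14 at 1.5-fold. The count lower with PPE in ORX, 10, was 3 with normexp, 20 without scaling and 24 at 1.5-fold, and that lower with ORX under PBS, 0, was 5 at 1.5-fold. With normexp the medians for ORX under PPE were -1.31 for all members and -1.95 for the atrial genes, and the ventricular median for PPE in ORX was -0.0011. The count lower with ORX under PPE ranged from 23 to 30 over the settings. Normexp with an offset draws low values together, so fewer dim genes pass 2-fold by its construction. For lack of replicates a median was taken as moved where it shifted by more than the SD of all genes' differences (0.265 to 0.337), chosen after the values were seen, and this says nothing of stability between mice. Against spot noise (0.0514), 32 of 108 medians and 346 of 1252 single values moved. Taking the percentile over probe means, added after seeing the data, moved none by that much. No paired analysis was possible because each group is 1 array, and no replicate could be left out.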
